A study of Mus musculus with 8 samples.

Results

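The genes described here are the histone genes of CD11b+ bone marrow (BM) cells, the myeloid fraction that granulocytes and monocytes belong to. They were chosen by gene symbol (names starting with Hist1h to Hist4h, H2af, H3f3 or H1f), with earlier results of the same data known, and 83 of the 41018 genes in the table carried such a name. Of these, 67 were replication-dependent genes of the histone clusters (Hist), 15 were replacement histones (H2af, H3f3 and H1f) and 1, H3f3aos, was an antisense transcript of the H3f3a locus. The cells came from C57BL/6 female mice. In 4 samples the mice had been given extracellular vesicles of pancreatic cancer cells (PC-EV-educated, from the murine line PAN02) for 3 weeks, and in the other 4 samples they had been given the vehicle, PBS, on the same schedule. BM was flushed from leg bones, red cells were lysed, and CD11b+ cells were captured on magnetic beads. Whether a sequenced sample was 1 animal or a pool was not stated, while the study's PCR samples of such cells were pools of several animals. RNA was total RNA with ribosomal RNA removed, a preparation that keeps RNAs without a poly(A) tail.

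Histones package DNA into nucleosomes: an octamer of H2A, H2B, H3 and H4 wraps the DNA and the linker histone H1 binds where the DNA enters and leaves. The cluster genes are switched on in S phase, when new DNA must be packaged, and most of their mRNAs end in a short stem-loop, bound by the protein SLBP, in place of a poly(A) tail. Replacement histones are made throughout the cell cycle, from mRNAs with poly(A) tails, and take the place of the cluster proteins at promoters, at transcribed genes and at sites of DNA damage. In the BM, dividing myeloid precursors need histone supply, whereas mature neutrophils no longer divide.

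The stem-loop is shown first because most cluster mRNAs end in it. In the annotated transcripts (GENCODE vM21, GRCm38), the 16-base word shared by the largest number of cluster genes near their ends was taken. It lay after the stop codon and formed a stem of 6 base pairs around a loop of 4 bases. Capitals mark the stem in the words below, which read 5′ to 3′ in DNA letters.
Most common word, 26 genes of types H1, H2A, H2B and H3: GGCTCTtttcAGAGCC
Word of 7 H4 genes, Hist1h4h and Hist1h4f among them: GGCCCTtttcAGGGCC
Word of 6 genes, Hist1h2bb and Hist1h3c among them: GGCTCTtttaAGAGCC
Word of Hist1h4b and Hist1h4j: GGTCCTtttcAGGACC
Word of the replacement gene H2afx: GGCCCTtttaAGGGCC
The H4 words differed from the common word in the stem, where a changed base on one side went with a change on the other that kept the pair.

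Of the 67 cluster genes, 52 had at least 16 annotated bases after the stop codon, and 41 of these held the stem-loop with up to 2 mismatches to the common word, 26 of them with no mismatch. It began 21 to 58 bases after the stop codon, with a median of 31. In 19 of the 41, over 150 annotated bases followed the loop. Of the 12 replacement genes with at least 16 annotated bases there, 0 held it by the same rule. The word was chosen from the cluster genes, so these counts do not test whether it sets the classes apart. Hist1h4a, Hist1h4b, Hist1h4i, Hist1h4j and Hist2h4 missed the limit too, with 3 or 4 mismatches. Over 21127 genes with such bases, 50 held it (0.237%), and 9 of the 50 were not members. With up to 4 mismatches and full pairing within 200 bases of the stop, a rule added after the data were seen, the count was 46 cluster genes, 12 of them H4 genes, and 1 replacement gene, H2afx, 46 bases after its stop codon. H2afx, whose product is phosphorylated at DNA breaks, was therefore the 1 gene named as a replacement histone that carried the cluster genes' 3′ end feature in these transcripts. By this rule 26 genes that were not members held the word too. The first rule had no limit on distance from the stop, so the 26 do not include all of the 9. The 6 cluster genes with at least 16 annotated bases and no such word were Hist1h1a, Hist1h2bc, Hist1h2bq, Hist1h2br, Hist2h2be and Hist2h3b. Hist2h3b had 37 annotated bases after the stop, room for the word only at the nearest position seen in the others. Hist1h1a had 48, enough to hold it at their median position but not at the furthest.

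The level used is the deposited Max group mean, which takes for each gene the group with the higher mean. Multiplied by exonic length, the low levels fell on 8 steps of 1 read. This is what a mean over 4 libraries of RPKM, reads scaled to exonic length and to library depth, would give. The steps implied library depths of 42200000 to 53500000 reads. The level carries no standard deviation or n, it does not say which group was higher, and sums over genes mix the groups. No difference between PC-EV-educated and PBS samples is given, since levels of individual samples were not analysed here and the columns of the authors' own comparison were not used. A level set against another gene's does not tell more cells of a type from more RNA per cell. The cells' labelled identity was checked against markers. The 11 neutrophil and granulocyte markers lay between 178 (Cxcr2, a chemokine receptor) and 42151 RPKM (S100a9, a calcium-binding protein, followed by S100a8 at 19134). Itgam, which encodes CD11b itself, was not analysed here. The 4 B cell markers lay between 0.264 and 3.54 RPKM, the 4 T cell markers between 0.00871 and 1.97, and the 4 erythroid markers reached 57.6, at Hbb-bs, a globin. The 3 natural killer cell markers reached 17.1, at Nkg7, a protein of cytotoxic granules. Within the myeloid lineage, the 5 granulocyte precursor markers lay between 24.8 and 226 RPKM and the 7 monocyte and macrophage markers between 10.1 and 189. The part of these other cells in the histone levels was not tested.

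Histone genes were among the most abundant transcripts of these cells. A level of at least 0.1 RPKM was given for 75 of the 83 (90.4%), against 14153 of all 41018 genes (34.5%). At 10 RPKM or more the counts were 67 members (80.7%) and 3010 of all genes (7.34%), and at 100 RPKM or more 49 members (59.0%) and 308 of all genes (0.751%). Members thus made up 15.9% of the genes at or above 100 RPKM. They held 5.12% of the summed level and 2.04% of the level multiplied by length, the latter being close to a share of reads. For scale, Gapdh, a glycolytic enzyme of all cells, was at 318 RPKM.

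**Figure D1:**
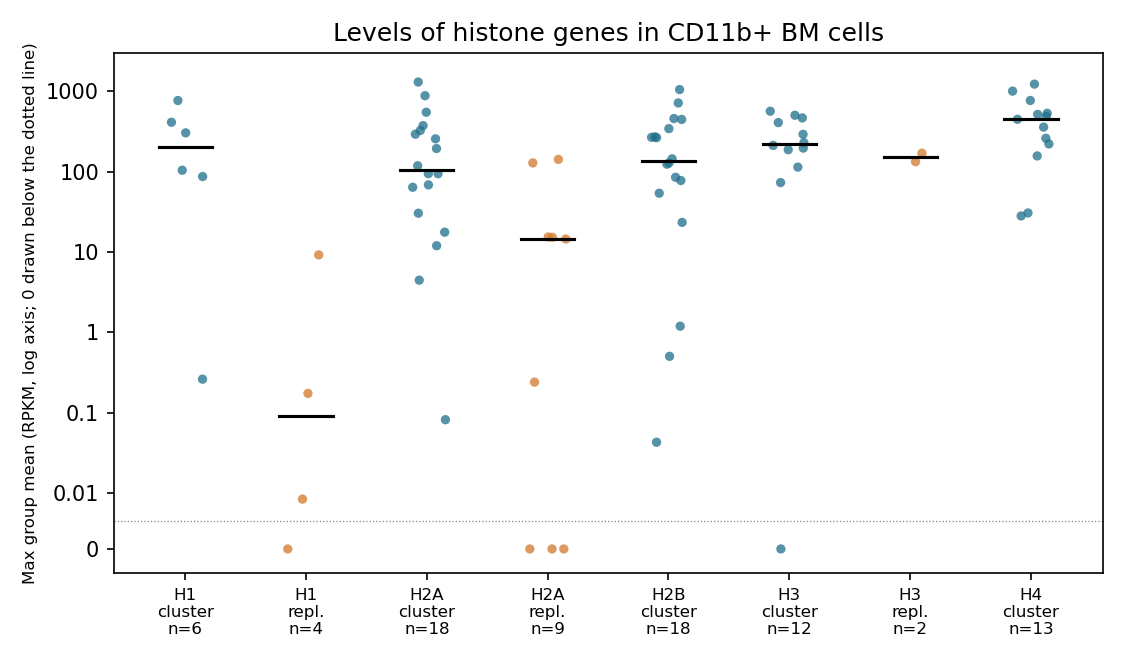
Level of each histone gene by type and class, as Max group mean in RPKM on a log axis; each point is 1 gene, the black line is the median over the genes of the column, and genes at 0 are drawn below the dotted line. Cluster genes of every type centre between 106 and 448 RPKM, while the replacement genes separate into a few above 100 RPKM and the rest below 20 RPKM.

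The cluster genes had a median of 221 RPKM, with quartiles of 75.3 and 448, and the replacement genes a median of 9.18, a ratio of 24.1 between the medians. Summed, the cluster genes reached 20101 RPKM, or 97.0% of the histone level, and the replacement genes 628 RPKM. Exonic length enters both values. The median exonic length was 539 bases in cluster genes, 1633 in replacement genes and 3504 over protein-coding genes, and 62 of the 67 cluster genes had 1 exon against 6.03% of protein-coding genes. When the reads were set against coding length alone, an alternative added after the data were seen, the cluster share was 90.6% and the medians were 341 and 32.3.

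H4, which like H2B had no replacement form among the members, had the highest summed level, 6044 RPKM over 13 genes. Hist1h4h led it with 1229 RPKM, from at least 97583 reads in the higher group, followed by Hist1h4f with 1006 and Hist1h4m with 769. Hist1h4c, Hist1h4d, Hist1h4n and Hist1h4k lay between 448 and 533 RPKM, and Hist1h4b, Hist1h4a, Hist1h4j and Hist2h4 between 157 and 358. The lowest were Hist1h4i, at 30.6, and Hist4h4, a lone gene on chromosome 6 with 2863 annotated exonic bases, at 28.0 RPKM. All 13 encoded the same protein of 103 residues. Their levels spanned a 43.9-fold range, and per coding length a 26.4-fold range from Hist1h4i at 71.2 to Hist1h4d at 1882.

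H2A, which pairs with H2B in the octamer, summed to 4681 RPKM over 18 cluster genes. Hist2h2aa1 had the highest level of all members, 1306 RPKM, and Hist1h2ap followed with 882 and Hist1h2ab with 549. Between 194 and 374 RPKM lay Hist1h2ag, Hist1h2ak, Hist1h2af, Hist2h2ac and Hist1h2ad. Hist1h2ae, at 118, was the last above 100, and Hist1h2ai, Hist1h2an, Hist2h2aa2, Hist1h2ah, Hist1h2ac, Hist2h2ab and Hist3h2a ran from 94.3 down to 11.9 RPKM. The 18 genes encoded 9 proteins, and the commonest of them, shared by 9 genes, held 46.8% of the level of all H2A genes. Hist2h2aa1 and Hist2h2aa2 shared another, which held 27.5%.

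H2B summed to 4456 RPKM over 18 genes. Hist1h2bb led with 1051 RPKM, then Hist1h2bg with 716 and Hist1h2bn with 458. Hist1h2bk, Hist1h2bj, Hist1h2bf, Hist1h2bm and Hist2h2bb ranged from 447 down to 265 RPKM. Hist1h2bq, Hist1h2bh, Hist1h2bl, Hist1h2bc, Hist1h2be, Hist1h2br and Hist1h2bp lay between 23.3 and 144. The 5 cluster genes annotated with more than 1 exon, Hist1h2bp, Hist1h2bq, Hist1h2br, Hist1h2be and Hist1h2bc, were all H2B genes, with Hist1h2bq, at 144 RPKM, the highest of them. Of these, Hist1h2bq, Hist1h2br and Hist1h2bc were among the 6 without the stem-loop word. Set against coding length, Hist1h2be was the highest of the 5, at 904, against 718 for Hist1h2bq. Hist1h2bq shared most of its sequence with Hist1h2br. The 18 genes encoded 12 proteins.

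H3 summed to 3246 RPKM over 12 cluster genes. Hist1h3c was highest at 565 RPKM, then Hist1h3b at 504 and Hist2h3c2 at 466, and Hist2h3b, Hist1h3i, Hist1h3f, Hist1h3h, Hist1h3g, Hist1h3e, Hist1h3a and Hist1h3d ranged from 408 down to 73.1. The same protein of 136 residues was encoded by 7 genes, which held 68.6% of the H3 level, replacement genes included, and a second by Hist1h3h, Hist1h3i, Hist1h3g and Hist1h3a, which held 22.9%. Hist2h3c1 was at 0.

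H1, the linker histone, had the lowest sum among cluster types, 1675 RPKM over 6 genes with 6 different proteins. Hist1h1c held 768 RPKM, Hist1h1e 412 and Hist1h1b 304, and these 3 made up 88.6% of it. Hist1h1a followed with 104 RPKM and Hist1h1d with 86.8, the latter over 7425 annotated exonic bases. Set against coding length, Hist1h1d was at 968, above Hist1h1b at 336. Per coding length, the order of the sums among cluster genes became H4, H2B, H2A, H3 and H1, with H2B at 7866 and H2A at 6238.

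**Figure D2:**
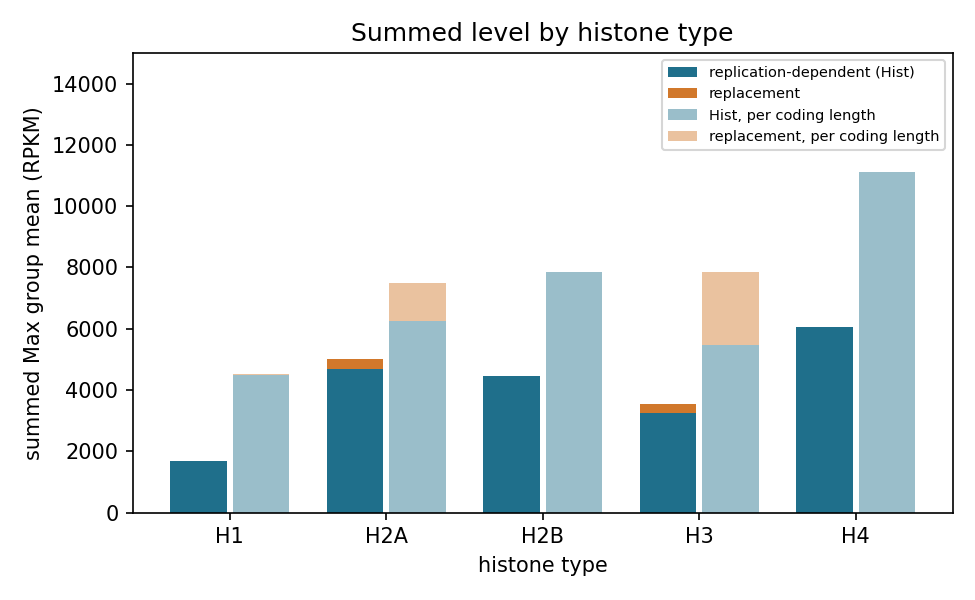
Summed Max group mean by histone type in RPKM, from the deposited level per exonic length (dark bars) and recomputed per coding length (pale bars), with cluster genes in blue and replacement genes stacked in orange. H4 has the tallest bar on both scales, and the replacement share of H3 grows from 8.53% to 30.1% per coding length.

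Among the replacement genes, 4 stood above 100 RPKM. H3f3b was at 170 and H3f3a at 133 RPKM, a ratio of 1.28, and both encode the same H3.3 protein, which is placed at active chromatin outside S phase. Together they held 8.53% of the H3 level, or 30.1% per coding length. The coding-length value counts reads of the untranslated ends as well, which in these genes are long. H2afx was at 142 RPKM and H2afz, which encodes the H2A.Z of nucleosomes next to transcription starts, at 128. H2afy (macroH2A, found on the inactive X chromosome), H2afj and H2afv (the other H2A.Z gene) were at 15.3, 15.2 and 14.5 RPKM. The replacement genes held 6.32% of the H2A level, or 16.9% per coding length. H1f0, a linker histone of cells that have stopped dividing, was the highest of the replacement H1 genes at 9.18 RPKM. The others of these were at 0.173 (H1fx), 0.00835 (H1fnt) and 0 (H1foo). H2afy2, a second macroH2A gene, was at 0.239 RPKM.

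The members known from germ cells were at or near the floor. Hist1h2ba and Hist1h2aa, a head-to-head pair of H2B and H2A genes of the testis, were at 0.0427 and 0.0814 RPKM, which correspond to 3 and 6 reads in the higher group. Hist1h1t, the testis H1, was at 0.260 RPKM, or 41 to 50 reads. H1fnt, of spermatids, rested on 2 reads. The 5 members at 0 were H1foo, of oocytes, the testis genes H2afb1, H2afb2 and H2afb3, and Hist2h3c1. Over all genes, 12793 (31.2%) were at 0. Of the other low members, Hist1h2ao was at 4.45 RPKM, Hist2h2be at 1.19 and Hist3h2ba at 0.501. H3f3aos, which overlaps H3f3a on the opposite strand, was at 0.819.

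By place in the genome (GRCm38), the 54 cluster genes on chromosome 13 fell into 2 stretches. The first, from 21715763 to 22043676, held 23 genes with a sum of 6462 RPKM and a median of 267. The second, from 23531050 to 23934851, held 31 genes with a sum of 10654 and a median of 229, from Hist1h4h at one end to the testis pair at the other. The cluster on chromosome 3, from 96219865 to 96270132, held 10 genes with a sum of 2944 and a median of 206 RPKM. The medians of these 3 clusters lay close together beside the spread of genes within each. The pair on chromosome 11, from 58948920 to 58956830 (Hist3h2ba and Hist3h2a), summed to 12.4 RPKM.

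Many cluster genes lie head to head, with their starts facing each other across a short shared stretch. There were 13 such pairs of neighbours with at most 1000 bases between the starts, 12 of an H2A with an H2B gene and 1 of Hist1h2bh with Hist1h3f, and the gaps ran from 175 to 659 bases. Hist1h2ag and Hist1h2bj were closest in level, at 374 and 343 RPKM. Hist1h2ak and Hist1h2bn, at 325 and 458, and Hist1h2bf and Hist1h2ad, at 271 and 194, were also within 2-fold, as were 6 of the 13 pairs in all. The 6 include the testis pair Hist1h2ba and Hist1h2aa, whose levels rested on 3 and 6 reads. At the other end, Hist2h2ac was at 256 RPKM and Hist2h2be, whose start lay 238 bases away, at 1.19, a ratio of 215. The median ratio within a pair was 2.80. These ratios depended on annotated length: per coding length Hist2h2ac and Hist2h2be differed 41.8-fold, the widest gap became that of Hist1h2bq and Hist1h2ao at 132, which share sequence with other members, and the median ratio was 1.91. For a correlation, the genes of a pair were ordered by position on the chromosome, not as H2A against H2B. In that order, Pearson's r of the log2 levels over the 13 pairs was 0.65 and Spearman's rho 0.19. Over the 12 pairs without the testis pair Hist1h2ba and Hist1h2aa they were -0.07 and -0.03, so the positive value rested on that pair. The points share libraries and, in part, sequence.

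**Figure D3:**
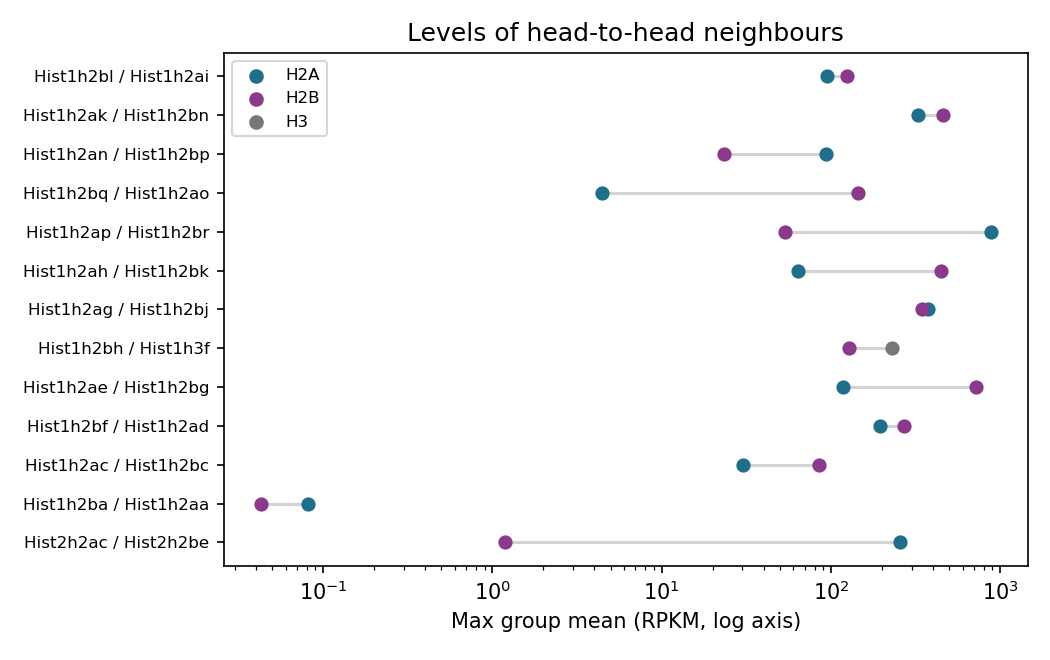
Levels of the 13 head-to-head pairs of histone genes, as Max group mean in RPKM on a log axis; each row is a pair, each point a gene coloured by histone type, and the grey line joins the pair. In 6 pairs, among them the testis pair Hist1h2ba and Hist1h2aa near the floor, the points lie within 2-fold. The widest gap is that of Hist2h2ac and Hist2h2be at 256 and 1.19 RPKM.

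The 100 bases before the transcription start are shown for 5 genes, taken from RefSeq (GRCm38.p6), to set the highest gene of several types beside a replacement gene. Capitals mark the motifs searched on both strands: CCAAT, which reads ATTGG on the other strand, the TATA box TATAAA, and the octamer ATTTGCAT, which reads ATGCAAAT on the other strand. Different motifs do not overlap in the stretches shown.
Hist1h2bb, chr13:23746634-23746733, plus strand: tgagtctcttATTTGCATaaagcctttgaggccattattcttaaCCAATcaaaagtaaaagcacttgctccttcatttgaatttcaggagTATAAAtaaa
Hist2h2aa1, chr3:96245397-96245496, plus strand: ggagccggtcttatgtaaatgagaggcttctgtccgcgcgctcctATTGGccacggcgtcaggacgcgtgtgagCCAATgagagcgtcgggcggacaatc
Hist1h1c, chr13:23738707-23738806, plus strand: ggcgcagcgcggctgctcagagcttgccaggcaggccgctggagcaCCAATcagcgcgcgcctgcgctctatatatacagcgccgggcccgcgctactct
Hist1h4h, chr13:23530944-23531043, plus strand: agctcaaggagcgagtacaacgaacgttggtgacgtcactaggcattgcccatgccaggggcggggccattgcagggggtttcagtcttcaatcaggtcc
H3f3b, chr11:116024505-116024604, minus strand: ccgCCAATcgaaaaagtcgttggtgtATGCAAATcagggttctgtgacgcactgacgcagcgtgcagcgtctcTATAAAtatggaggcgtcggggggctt
Hist1h2bb held all 3 motifs in this stretch and so did H3f3b, whose RefSeq start lay 3458 bases inside the gene from its deposited start. Hist1h4h held none of them.

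RefSeq windows of 300 bases, from 250 before to 50 after the start, were matched for 76 of the 83 members, 62 cluster and 14 replacement genes. CCAAT was in 53 of the 62 cluster windows (85.5%) in 10 of 14 replacement windows (71.4%) and in 37.4% of all 32851 windows. It was in every window of the 6 H1, 18 H2A, 16 H2B and 10 H3 cluster genes, but in 3 of 12 H4 windows (25%). TATAAA was in 35 cluster windows (56.5%), 8 of them from H4 genes, in 1 of 14 replacement windows (H3f3b) and in 13.6% of all windows. The octamer, a motif of H2B promoters, was in 6 of 16 H2B and 7 of 18 H2A windows, and in 1.74% of all windows. On the gene's own strand it was in 6 H2B and 0 H2A windows, and head-to-head neighbours overlap in these windows, so that a motif can be counted for both. A match is of letters only, and binding was not measured.

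Sequence shared between members limits how far a level can be given to 1 gene. Transcripts were divided into all windows of 150 bases, the length of a read. At least 1 window of 53 of the 67 cluster genes was also present in another gene, and in 21 of them 50% or more of the windows were. H2A genes shared most, with a median of 58.9%, and H1 genes least, with 1 of 6 sharing any. Of the 15 replacement genes 3 shared any, up to 10.4%. How reads that matched several genes had been assigned was not stated. Hist2h2aa2, at 68.3 RPKM, had every window in common with Hist2h2aa1, at 1306. Hist1h2ao, at 4.45, had 91.5% in common with Hist1h2ap, at 882, and Hist1h4n, at 488, had 77.2% in common with Hist1h4m, at 769. Hist1h2bq and Hist1h2br, at 144 and 53.8, shared 92.4% and 84.1% of their windows. Hist2h3c1, at 0, lay wholly within Gm20634, an annotated transcript on chromosome 3 from 96245554 to 96248509 with a level of 9.45 RPKM, so that its 0 does not show that it was silent. The split of level within these pairs is uncertain. Their sums can be affected too, because some of these genes share windows outside the pair. Hist1h2ap shared 64.0% with Hist1h2ag, and Hist2h2aa1 shared 87.0% with Gm20634. Hist1h4f shared 1.24% of its windows, and Hist1h1c shared 0%.

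**Figure D4:**
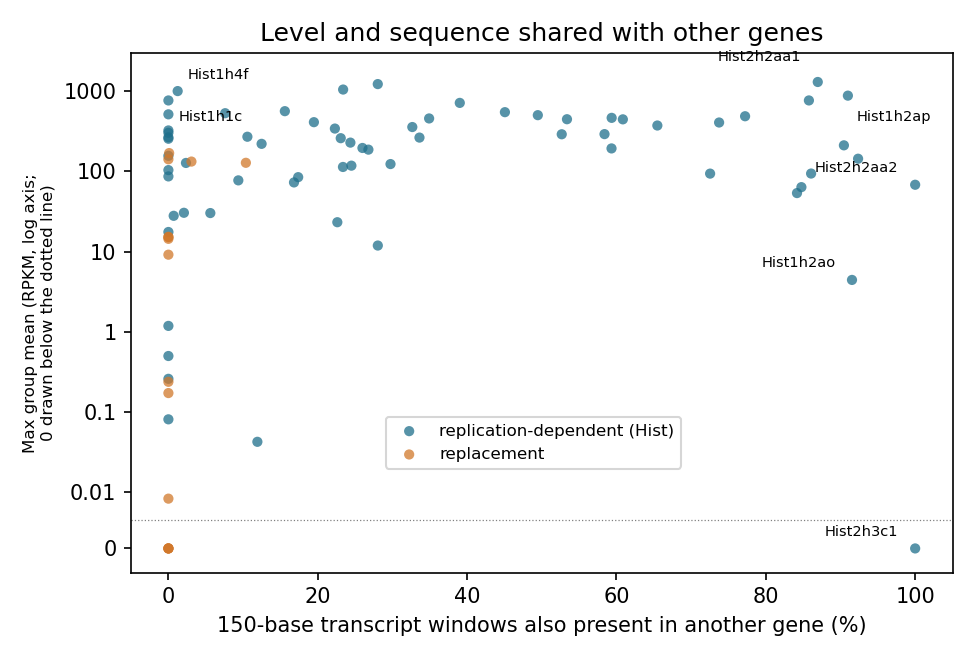
Level of each histone gene (Max group mean in RPKM, log axis, with 0 drawn below the dotted line) against the percentage of its 150-base transcript windows that are also present in another gene; blue points are cluster genes and orange points replacement genes. Near-identical partners such as Hist1h2ap and Hist1h2ao lie far apart in level at over 90% shared windows, and no replacement gene passes 10.4%.

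The genes that make and handle histone mRNA were below most cluster genes in level. Of 18 factors of histone pre-mRNA transcription and processing 17 were in the table, all at or above 0.1 RPKM, with a median of 5.15. Srrt, an RNA quality factor bound to the cap complex, was highest at 17.4 RPKM, Cdk2, the kinase that with cyclin E starts histone transcription, was at 13.5, and Ncbp1, of the cap-binding complex, at 11.3. Slbp, which binds the stem-loop, was at 9.19, and Npat, the coactivator of the clusters, at 2.76; these were named for their role, outside the rule by level. Zfp473, which links SLBP to the U7 particle that cuts the mRNA, was lowest at 0.166. The 22 histone chaperones had a median of 11.8 RPKM. Hjurp, the chaperone of the centromeric H3 variant, led them with 45.1, Ssrp1, of the FACT complex, had 25.9 and Asf1b, which hands on H3 and H4, had 18.1. Ubn2, of the complex that places H3.3, was lowest at 1.84. The 20 S-phase genes had a median of 11.5 RPKM, with the proliferation marker Mki67 at 95.1, the topoisomerase Top2a at 43.5, the ribonucleotide reductase subunit Rrm2 at 40.3 and the replication initiation factor Gins2 at 0.95. Over all genes at or above 0.1 RPKM the median was 2.38.

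**Figure D5:**
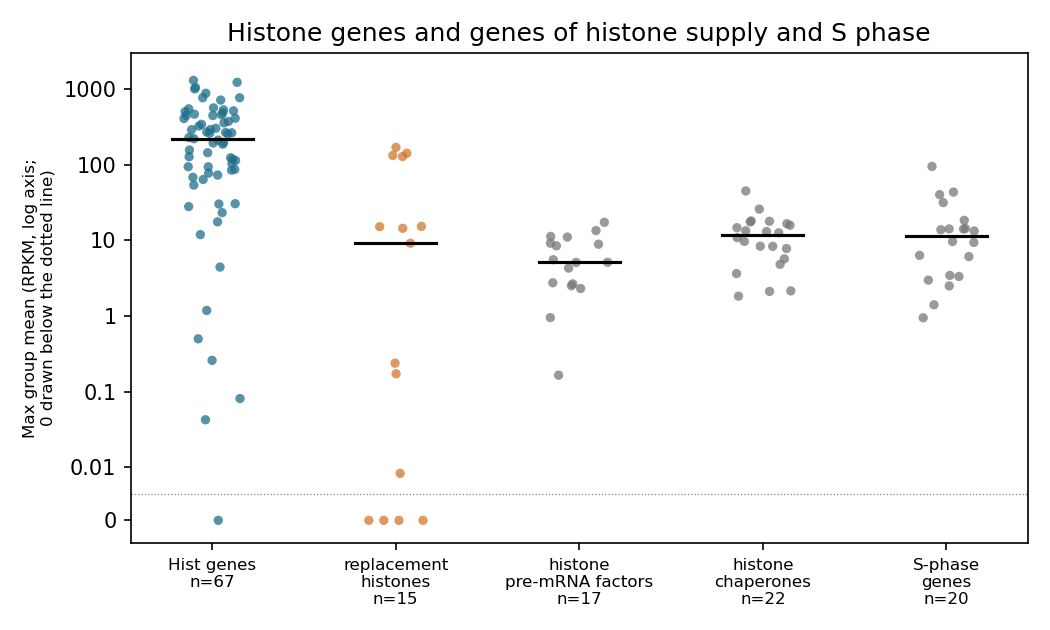
Level of cluster histone genes, replacement histone genes, histone pre-mRNA factors, histone chaperones and S-phase genes, as Max group mean in RPKM on a log axis; each point is 1 gene, the black line is the median of the group, and genes at 0 are drawn below the dotted line. The median of the cluster genes is 221 RPKM, and those of the other groups lie between 5.15 and 11.8 RPKM.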

How the data were processed

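CD11b+ BM cell RNA of 4 samples of PC-EV-educated mice and 4 of PBS mice was sequenced by the authors as ribosomal-RNA-depleted, stranded, paired-end libraries and mapped to GRCm38, and the submitters' processing notes name GRCm38 and edgeR. The aligner, the annotation release and the handling of multiply matching reads were not given in the sources used here. Each row of the deposited table is a gene with a Max group mean. Its unit is not named, and the values behave as RPKM per exonic length averaged by the authors over the 4 libraries of a group. The table holds 0 columns of single samples. The other columns (log2 fold change, linear fold change, p-value, false discovery rate and Bonferroni value) are the authors' own comparison and were not used, nor was the separate list of called genes. No test was run. Members and gene lists were chosen with earlier results of these data known.

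Exonic and coding lengths and transcripts came from GENCODE vM21, and promoters from RefSeq GRCm38.p6. The place of 81 of the 83 members was identical in GENCODE vM21. Depth was implied by the value of 1 read, between 42200000 and 53500000 reads per library, and read numbers cover counting error only. Named members were, in each type and class, the 3 highest, every member at or above 10 RPKM and those at 0; in other lists, the 3 highest and the lowest. Other low members were named after their values were seen. Genes of 0.1 RPKM or more were called detected. The octamer was added after the other motifs. Python 3.11.15, pandas 2.3.3, numpy 2.4.6 and matplotlib 3.10.9 were used. The search for read steps was also run on simulated data, with exactly known gene lengths and a slightly wider range. It therefore does not cover errors in annotated length. The alternatives were other level limits, other members in each class, coding length, gene-strand motifs and other mismatch limits.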

Additional observations from a re-analysis of the deposited data

How the results depend on the processing

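No paired analysis was possible because the table gives 1 level per gene over a group, not values of single samples; for the same reason no replicate could be left out. The number of histone genes at or above 0.1 RPKM, 75, became 78 with any level above 0 and 70 at 1 RPKM. The cluster share of 97.0% became 96.8% without the most abundant member, 97.7% with H2afx counted among the cluster genes and 90.6% per coding length. Each lay outside counting error, while the share over protein-coding members alone stayed within it. That error was taken from a share of pooled reads, not of summed RPKM, and holds no spread between samples. The cluster median of 221 RPKM became 341 per coding length, and the replacement median of 9.18 became 15.3 over members at or above 0.1 RPKM and 32.3 per coding length. The stem-loop count of 41 cluster genes became 26 with no mismatch and 46 with up to 4 within 200 bases of the stop. Coding length and 4 mismatches were chosen after seeing the data. CCAAT in 85.5% of cluster windows became 82.3% on the gene strand, and TATAAA in 56.5% became 48.4%. In replacement windows CCAAT fell further on the gene strand, from 71.4% to 42.9% (6 of 14). In all windows it went from 37.4% to 21.1%, and in H4 windows from 3 to 1 of 12. In all, 7 of 14 alternatives moved a value past its limit. The limit was counting error for shares and a set fold change for counts and medians. These values have no direction, so a reversal could not have been seen. Exonic length limits comparisons between genes with long annotated ends, and shared sequence limits those between near-identical genes.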

Other observations

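Among the genes outside the name rule, 1 held the stem-loop word with no mismatch within 200 bases of its stop codon, H2bfm on chromosome X, an H2B-like gene by its symbol, listed at 0 RPKM. Ckap2l, a protein of the mitotic spindle, held a paired word with 3 mismatches and was at 14.7 RPKM, and Hp1bp3, a relative of the linker histones, held one with 4 mismatches and was at 17.4 RPKM. H2bfm, Ckap2l and Hp1bp3 were chosen from 26 such genes after their values were seen. Abcb8, with 2 mismatches and a level of 0.659 RPKM, matched more closely than Ckap2l and Hp1bp3. Olfr632 and Slc9a4 were among others with 3 mismatches, so the choice does not link the word to the role of a gene. Whether the words form a stem-loop in these mRNAs was not measured.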
